A study of Mus musculus with 8 samples.

Results

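The comparison is between 2 kinds of regulatory T (Treg) cells that lay side by side in the same diseased mice, Treg cells that had regained the gene Brg1 and Treg cells that still lacked it. Its members were all genes with a level of at least 1 FPKM in either of these 2 libraries, which gave 12591 of the 53465 listed genes (23.5%). FPKM is the number of sequenced fragments of a gene scaled to the length of its exons and to the depth of the library. Of the members, 9700 were protein-coding. Just inside the limit, by up to 5% of it, lay 160 genes with a median log2 difference between the libraries of -0.46. Just outside it, by up to 5%, lay 168 genes with a median of -0.22.

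The Brg1-reexpressed cells carry the label R26CAG-FlpoERBrgF/+Foxp3YFP-Cre/YFP-Cre, and the Brg1-deleted cells the label R26CAG-FlpoERBrgF/deltaRFoxp3YFP-Cre/YFP-Cre(treatment). Both came from spleen and lymph nodes (LN) of C57BL/6 rKO1 mice aged 3 to 4 weeks, on day 7 after low-dose tamoxifen (TAM). rKO1 mice lose Brg1 in cells that express Cre from the Foxp3 gene, so that Treg cells are the targeted lineage. Their second Brg1 allele (ΔR) holds a gene trap with a GFP reporter, which TAM-activated Flpo recombinase, driven by the ubiquitous CAG promoter from the R26 locus, cuts out. The low dose left a mixture in each mouse of GFP+ cells with the trap in place and GFP- cells with the allele restored, and these were sorted apart as CD4+CD25+YFP+ cells. That promoter acts in every cell type, and both libraries carry the same Cre, Flpo and TAM. The study's other libraries were untreated rKO1 Brg1-deleted, WT (R26CAG-FlpoERBrgF/+Foxp3YFP-Cre/+) and, from mosaic females, Brg1-sufficient and Brg1-deleted Treg cells, besides a pair of activated Treg (aTreg) cells of rKO1 mice on day 7. The paper describes rKO1 mice as Brg1F/ΔR with Foxp3YFP-Cre on each X chromosome. It gives the mosaic females as Brg1F/ΔR with Foxp3YFP-Cre/+, and both strains as homozygous for R26CAG-FlpoER. All 8 libraries came from mice aged 3 to 4 weeks. Each of the 8 libraries is 1 of its kind, and the labels do not say how many mice it holds.

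BRG1, the product of Smarca4, is an ATPase of the BAF chromatin remodelling complexes, which slide or evict nucleosomes and thereby open enhancers and promoters. Treg cells restrain other T cells through contact receptors, cytokines and consumption of growth factors, and they lose resting markers, gain homing receptors and divide when activated. Mice without working Treg cells die of multi-organ inflammation, so the cells compared here regained BRG1 in a host already full of inflammatory signals. The comparison asks which genes and pathways differed between cells with and without BRG1 in that shared surrounding.

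With 1 library a side there is no replicate and no test. A member was called higher or lower where the log2 difference, log2((FPKM + 0.1) of the Brg1-reexpressed over the Brg1-deleted library), reached 1 in size, a 2-fold difference. Where values are written as "from A to B FPKM", A is the Brg1-deleted and B the Brg1-reexpressed library. Folds are given with the exact 95% binomial interval of the recovered reads, called the counting interval. It addresses counting error alone and takes each read as an independent draw. Amplified reads are not independent molecules, so it can be too narrow even for that error. The recovered reads came to 16602817 in the Brg1-deleted and 19364548 in the Brg1-reexpressed library. In sorted bulk RNA, fewer cells that express a gene and less of its RNA per cell cannot be told apart.

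Smarca4 measured from 6.13 to 9.52 FPKM, 1.55-fold (counting interval 1.41 to 1.72) higher after reexpression, against 7.34 FPKM in the untreated rKO1 and 14.8 FPKM in the WT library. Reads from exons ahead of the trap count in both states, so the value does not measure the lost part of the transcript alone. The markers of the sort were close to equal. Foxp3, the lineage factor, went from 29.2 to 29.1 FPKM, Il2ra, which encodes CD25, from 46.9 to 47.9 FPKM and Cd4 from 42.4 to 38.7 FPKM. Both libraries, whose labels give Foxp3YFP-Cre/YFP-Cre, a state that needs 2 X chromosomes, held reads of Y-linked genes as well as of Xist, the RNA of the inactive X. Eif2s3y measured from 16.5 to 11.2 FPKM and Xist from 3.13 to 2.69 FPKM, against 0 FPKM of Eif2s3y in the WT library. The part of sex in the differences was not tested.

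Markers of other cells were present in both libraries. Summed FPKM of the myeloid and dendritic list was 593 in the Brg1-deleted and 465 in the Brg1-reexpressed library, with 25 of 28 genes lower. Much of this sum was Cst3, which went up from 202 to 289 FPKM. The list's median log2 difference was -1.12, with 9 of 16 members at least 2-fold lower and 0 higher. The CD8 T and NK list summed to 150.3 and 62.6, with 12 of 16 genes lower. Most of both sums came from Fcer1g (from 83.6 to 30.5 FPKM) and Tyrobp (from 46.0 to 17.5 FPKM). Both genes also stand in the myeloid list, so these lists are not separate observations. The 2 higher genes were Cd8b1 (from 6.52 to 8.03 FPKM) and Klrc1 (from 0.605 to 1.82 FPKM). The erythroid list summed to 905 and 522. The B cell list summed to 406 and 436, with 11 of 16 genes lower and Cd74, the invariant chain of MHC class II, going from 208 to 294 FPKM. The plasma cell list went the other way in its sum, 553 and 1049.7, through the immunoglobulin gene Ighm (from 150.1 to 697 FPKM), while 8 of its 13 genes were lower. The part of such cells in the differences between the libraries was not tested. The aTreg library labelled Brg1-deleted carries a file header and a description that do not match its title. This was not resolved, so the direction of every aTreg difference rests on the titles. Both aTreg libraries were scaled apart from the others, so only differences within that pair are used. The erythroid list summed to 1539 FPKM in the aTreg library titled Brg1-deleted and to 29071 FPKM in the one titled Brg1-reexpressed.

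Of the 12591 members, 1070 were at least 2-fold higher (8.5%) and 1176 at least 2-fold lower (9.34%) in the Brg1-reexpressed cells, around a median log2 difference of 0.01. Together these are 17.8% of the members. A 4-fold difference was reached by 234 members upwards and 365 downwards. Of 2239 called members with recovered reads, 1878 had a counting interval that did not hold 1. The yardstick for 1 library against another is the WT against the mosaic Brg1-sufficient library, both with BRG1. In this pair 966 and 727 of the same genes differed 2-fold (7.67% and 5.77%, together 13.4%). The yardstick libraries also came from different mice of different genotype. The paper describes its Treg sort as YFP+, but the mosaic cells with BRG1 as YFP-. Foxp3 itself was lower in the WT than in the mosaic Brg1-sufficient library. The yardstick is therefore not a measure of library spread alone, and the part of gate and genotype in it was not tested. Scaling by library totals in place of the deposited scale would lower every log2 difference by 0.30 and give 716 higher and 1861 lower members. The median of a list that lies between 0 and 0.30 therefore changes sign with the scale, and lists are read beside the median of all members.

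**Figure D1:**
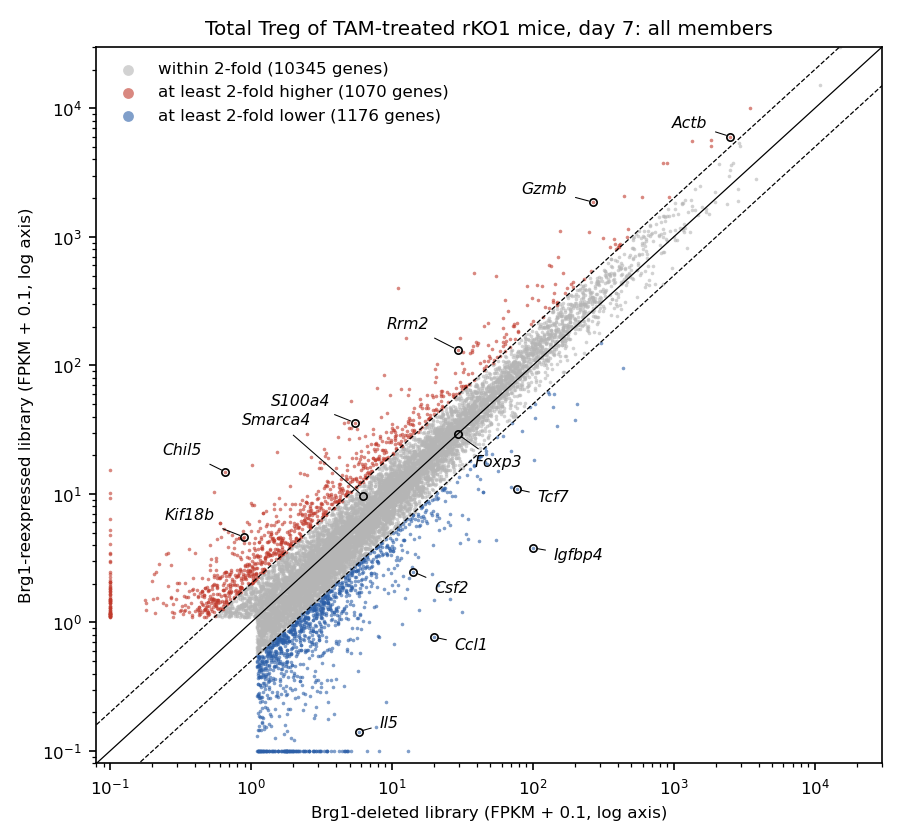
Each point is 1 of the 12591 members, with its FPKM + 0.1 in the Brg1-deleted library (x axis, log) against that in the Brg1-reexpressed library (y axis, log). The solid line marks equal levels and the dashed lines a 2-fold difference. Smarca4 and Foxp3 lie within 2-fold, Igfbp4, Tcf7, Csf2, Ccl1 and Il5 lie below the band, and Rrm2, S100a4, Kif18b, Gzmb and Actb above it.

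The 2 largest changes among protein-coding members with at least 10 FPKM in either library, outside the genes of the study's heat map and outside antigen receptor and histone genes, were falls. Igfbp4, an insulin-like growth factor binding protein typical of resting T cells, went from 100 to 3.700 FPKM, a 27.01-fold (counting interval 23.9 to 30.7) lower level. Ccl1, the ligand of CCR8, went from 19.7 to 0.668 FPKM and Treml2, a surface receptor of the TREM family, from 10.2 to 0.576 FPKM. These 3 did not behave alike across the study. Igfbp4 and Treml2 stood at 82.05 and 10.04 FPKM in untreated rKO1 mice, near the treated Brg1-deleted library, whereas Ccl1 stood at 0.977 FPKM there, so that its fall rests on a high value in the treated Brg1-deleted library. Plac8 (from 54.7 to 4.297 FPKM), the Rab GTPase activator Tbc1d4 (from 12.2 to 1.44 FPKM), the glutathione transferase Gsta4 (from 34.7 to 4.35 FPKM) and Evl, an actin regulator of the Ena/VASP family (from 33.2 to 4.78 FPKM), also lay among the 15 largest falls.

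Among the rises, Chil5, a chitinase-like secreted protein, led with from 0.557 to 14.7 FPKM, 26.5-fold (counting interval 15.6 to 48.9) higher. Untreated rKO1 cells held 0.262 FPKM of it and WT cells 8.82 FPKM. Fgl2, a prothrombinase and suppressive effector molecule of Treg cells, went from 3.44 to 18.9 FPKM, and Pvrig, an inhibitory receptor for nectins, from 4.89 to 32.7 FPKM. Both were also lowest in the Brg1-deleted cells of mosaic females, at 0.1998 and 0.662 FPKM. The unconventional myosin Myo1f (from 4.84 to 26.8 FPKM), the presenilin Psen2 (from 9.07 to 42.7 FPKM), the syndecan-binding protein Sdcbp2 (from 20.1 to 93.4 FPKM) and the mRNA-binding protein Carhsp1 (from 8.299 to 39.4 FPKM) shared this place in the mosaic pair, with 0.6502, 6.06, 5.56 and 1.87 FPKM in its Brg1-deleted library. S100b, a calcium-binding protein, went from 2.14 to 14.4 FPKM and stood at 0 FPKM in the untreated rKO1 and 0 FPKM in the WT library.

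A member that is higher beside a Brg1-deleted neighbour may still be low on the scale of the whole study, so the 6 total Treg libraries were ranked for each member. Among the members called higher, the Brg1-reexpressed library was the highest of all 6 in 885 of 1070 (82.7%), above the WT cells too. Over all members it was the highest in 27.3%. Among the members called lower, it was the lowest of the 6 in 656 of 1176 (55.8%), and in 426 (36.2%) the treated Brg1-deleted library was the highest. Both shares rest on the library that also sets the call and are given as a description. Against the untreated rKO1 library, 789 of the 1070 and 771 of the 1176 were 2-fold different in the same direction, against 12.1% higher and 10.8% lower over all members, although the Brg1-reexpressed library stands in both contrasts.

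**Figure D2:**
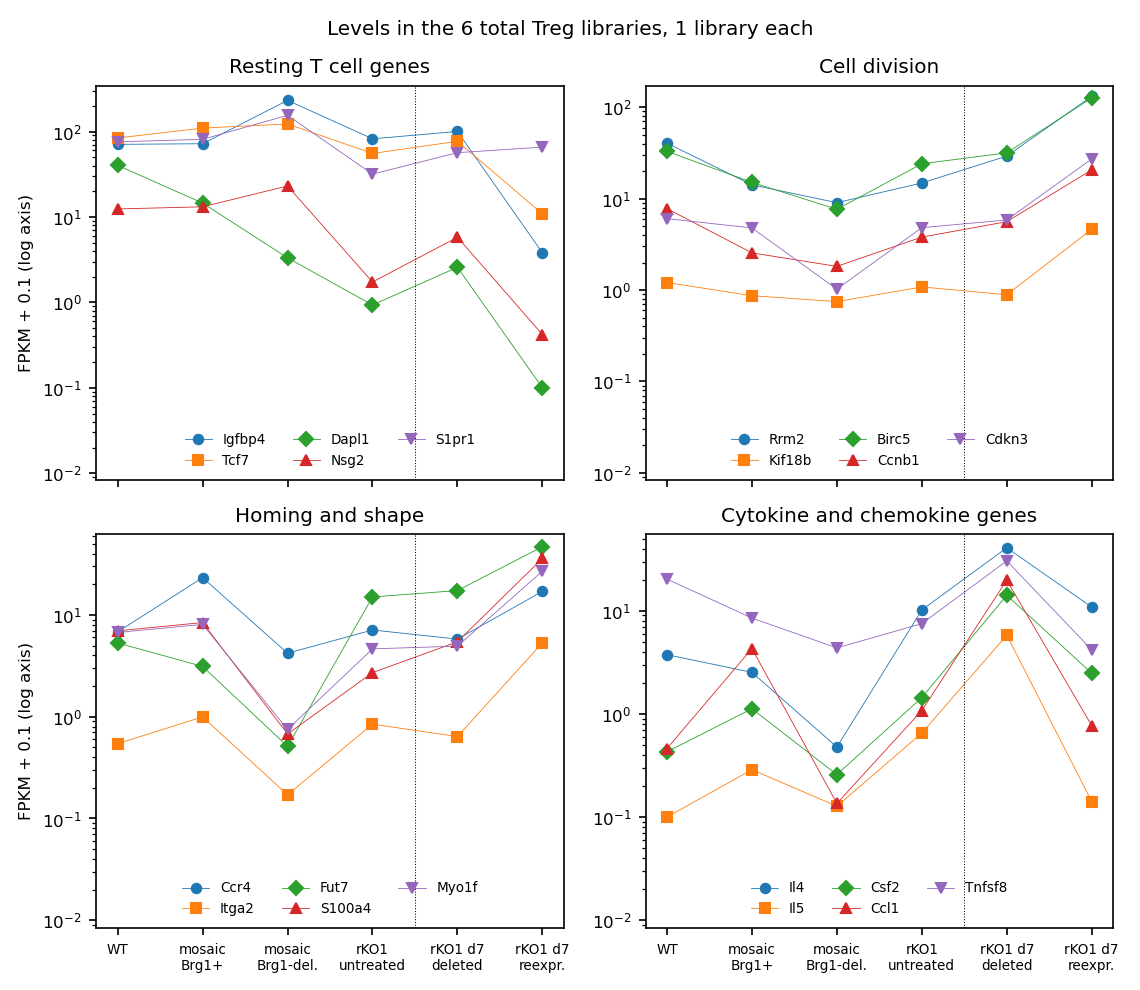
Levels (FPKM + 0.1, log axis) of 5 genes in each of 4 groups across the 6 total Treg libraries, 1 library each. The dotted line parts the 4 reference libraries from the 2 compared here, and the thin lines only join the points of a gene. The resting genes other than S1pr1 are lowest, and the division genes highest, in the Brg1-reexpressed library, while the cytokine genes peak in the treated Brg1-deleted library.

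Genes of resting and naive T cells were the clearest falling group of T cell state. Of 39 members, 17 were lower and 1 higher, with a median of -0.79 on the log2 scale, and the Brg1-reexpressed library was the lowest of the 6 in 26. Tcf7 encodes TCF1, the HMG factor of naive and memory T cells. It measured 76.7 FPKM in the Brg1-deleted and 10.8 FPKM in the Brg1-reexpressed library, 55.2 FPKM in untreated rKO1, 123 and 109 FPKM in mosaic Brg1-deleted and Brg1-sufficient and 83.9 FPKM in WT cells. The Brg1-reexpressed cells thus stood below all 5 others. Bach2 and Bcl2, which the study had already picked from these samples, went from 3.74 to 0.3696 FPKM and from 41.1 to 4.18 FPKM. Bcl2 is not in this list. Without the members picked there, Bach2 and Ccr7, the list had a median of -0.76. Nsg2 went from 5.69 to 0.3200 FPKM and the sodium pump subunit Atp1b1 from 3.29 to 0.185 FPKM. Dapl1, a marker of naive T cells, was at 2.47 FPKM in the Brg1-deleted library and had no read in the Brg1-reexpressed library, at least 8.84-fold lower with 3 reads taken as the limit.

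The loss was not shared by every resting marker. S1pr1, which draws T cells out of lymph nodes, went from 56.4 to 65.5 FPKM, and the IL-7 receptor chain Il7r from 41.5 to 37.8 FPKM. Both stayed within 2-fold while Tcf7 and Igfbp4 fell. Ccr7, the lymph node chemokine receptor and a gene of the heat map, went from 198 to 37.6 FPKM. Cd55, a complement regulator, was the only member of the list called higher, from 2.09 to 4.32 FPKM.

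Chemokine receptors were mostly higher and chemokine ligands more often lower. The receptor list had 8 of 14 members higher and 1 lower, with a median of 1.18. Since 8 of these stand in the heat map that the study drew from these samples, the count is not independent evidence. Among the other 6, Ccr4, a receptor for skin-homing ligands, went from 5.68 to 16.9 FPKM, 2.98-fold (counting interval 2.601 to 3.41) higher, Cxcr6 from 79.6 to 99.4 FPKM, Ccr6 from 39.1 to 24.1 FPKM and Cxcr4 from 5.68 to 4.69 FPKM. Ccr4 was not highest here, as mosaic Brg1-sufficient cells held 23.1 FPKM. Of 14 chemokine ligands, 7 were lower and 2 higher. The T cell chemokine Xcl1 went from 25.8 to 6.903 FPKM and the neutrophil chemokine Cxcl2 from 2.93 to 0.766 FPKM, whereas Ccl5, a chemokine of effector T cells, went from 20.9 to 103 FPKM.

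Adhesion genes showed a few large rises among many small differences. Itga2, the collagen-binding integrin chain, went from 0.538 to 5.22 FPKM, 9.697-fold (counting interval 7.48 to 12.8) higher. Itgb7, partner of the gut-homing α4 and αE chains, went from 229.7 to 467 FPKM, while the partners themselves, Itga4 and Itgae, went from 2.87 to 2.56 FPKM and from 21.9 to 29.5 FPKM. Of 19 integrins and activators no other was called, and the list's median of 0.23 would fall below 0 under scaling by totals. For selectin binding, the fucosyltransferase Fut7, which builds the sialyl-Lewis X end of the ligands, went from 17.3 to 46.7 FPKM, 2.71-fold (counting interval 2.47 to 2.96) higher. The scaffold protein of that ligand, Selplg, went from 149 to 244 FPKM and the sulfotransferase Chst2 from 2.16 to 4.503 FPKM. Gpr171, a G protein-coupled receptor of T cells, went from 9.84 to 35.04 FPKM and the lysolipid receptor Gpr55 from 1.35 to 8.22 FPKM. The leukotriene receptors Cysltr1 (from 3.41 to 1.32 FPKM) and Ltb4r1 (from 23.2 to 11.04 FPKM) were lower than in the treated Brg1-deleted cells but higher than in untreated rKO1 cells, with 0.999 and 1.86 FPKM.

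The machinery of cell shape and movement was higher as a group. Of 46 members, 14 were higher and 1 lower, with a median of 0.71, 0.66 above that of all members once a trend with exon length was removed. With the trend with level removed it stood 0.41 above, with 9 higher, and under scaling by totals 8 were higher and 2 lower. Actb, cytoplasmic actin and a BAF subunit as well, went from 2516 to 6026 FPKM, 2.39-fold (counting interval 2.38 to 2.41) higher. S100a4, a calcium-binding protein that binds non-muscle myosin, went from 5.34 to 35.8 FPKM, and its relatives S100a6 (from 893 to 3764 FPKM), S100a10 (from 1841 to 5123 FPKM) and S100a11 (from 839.7 to 3773 FPKM) moved the same way. Anxa2, the annexin that pairs with S100A10, went from 45.1 to 203 FPKM. Actb was not highest here, as it reached 15844 FPKM in mosaic Brg1-sufficient and 15043 FPKM in mosaic Brg1-deleted cells. In that pair the list had a median of 0.08, and in the aTreg pair -0.11. Ezr, which links the cortex to the membrane, stayed level at from 79.98 to 77.5 FPKM, and the crosslinker Actn1 was lower, from 1.34 to 0.389 FPKM.

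Genes of cell division were higher as a block. Of 81 mitosis and kinetochore members, 65 were higher and none lower, with a median of 1.33, and the Brg1-reexpressed library was the highest of the 6 in 78. In the yardstick pair, where both libraries have BRG1, the list had a median of 0.71 with 21 higher and 1 lower. The study picked 14 of these for its heat map. Among the remaining 67, 51 were higher, with a median of 1.27. Nuf2, of the kinetochore's NDC80 complex, went from 1.94 to 8.21 FPKM and Prc1, which bundles the central spindle, from 1.36 to 5.66 FPKM. Ube2c, the ubiquitin enzyme that serves the anaphase-promoting complex, went from 19.96 to 73.7 FPKM, and Cdk1, the mitotic kinase, from 8.08 to 28.2 FPKM. The condensin subunit Smc4 was the only member with a negative difference, from 109 to 87.99 FPKM.

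Many promoters of late cell cycle genes share a CHR element, TTTGAA, with CCAAT boxes bound by NF-Y nearby. Searched on both strands from 250 bases before to 50 bases after the RefSeq start, TTTGAA was in 64.7% of the 68 mitosis promoters at hand and in 12.4% of the 8141 promoters of all members. Among the 435 members called higher it was in 22.1%, and in 15.3% of the 379 left without the mitosis list. Among 568 members called lower it was in 13.03%. CCAAT was in 69.1% of the mitosis promoters and 39.6% of all. A match of letters is a description and shows no binding. The 4 stretches that follow are 120 bases each from the promoter windows of called mitosis genes, from RefSeq (GRCm38.p6). They are written 5′ to 3′ on the strand of the gene, with TTTGAA and CCAAT, or their reverse complements TTCAAA and ATTGG, in capitals. They are shown as examples that hold both TTTGAA and CCAAT matches, so their presence in these 4 adds nothing to the shares above.
Ube2c, chr2:164769809-164769928 (+ strand): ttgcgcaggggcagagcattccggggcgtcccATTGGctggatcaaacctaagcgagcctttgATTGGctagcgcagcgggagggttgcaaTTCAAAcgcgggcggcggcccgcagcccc
Ckap2l, chr2:129297213-129297332 (- strand): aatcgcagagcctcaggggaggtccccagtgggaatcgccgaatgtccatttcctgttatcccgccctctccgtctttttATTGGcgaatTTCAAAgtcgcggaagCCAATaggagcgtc
Cdk1, chr10:69352913-69353032 (- strand): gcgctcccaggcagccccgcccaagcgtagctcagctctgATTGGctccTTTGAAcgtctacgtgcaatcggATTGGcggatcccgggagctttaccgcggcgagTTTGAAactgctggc
Kif22, chr7:127042421-127042540 (- strand): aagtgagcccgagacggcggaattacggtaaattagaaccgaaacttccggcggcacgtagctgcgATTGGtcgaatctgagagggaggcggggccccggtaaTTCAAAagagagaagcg
Cdk1 holds 2 TTTGAA matches in its stretch and the other 3 genes 1 each. The log2 differences of the 4 genes were 1.88 for Ube2c, 1.83 for the spindle protein gene Ckap2l, 1.79 for Cdk1 and 1.51 for the chromokinesin gene Kif22.

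DNA replication genes differed by less. Of 53 members, 14 were higher and none lower, with a median of 0.72, and 47 had their highest level in the Brg1-reexpressed library. Rrm2, the inducible subunit of ribonucleotide reductase, measured 29.1 FPKM in the Brg1-deleted and 132 FPKM in the Brg1-reexpressed library, 14.7 FPKM in untreated rKO1, 8.94 and 14.1 FPKM in mosaic Brg1-deleted and Brg1-sufficient and 40.4 FPKM in WT cells. The Brg1-reexpressed level stood above all 5 others, with the WT cells next. Asf1b, a histone chaperone of the fork, went from 32.5 to 94.1 FPKM, thymidine kinase Tk1 from 10.5 to 29.98 FPKM and thymidylate synthase Tyms from 17.5 to 41.4 FPKM. Orc2, of the origin recognition complex, went from 5.73 to 4.38 FPKM and Rfc1, the large clamp loader subunit, from 11.6 to 11.5 FPKM. The replication promoters carried the E2F letters GCGGGAA in 39.5% of 43, against 8.76% over all members and 8.82% of the mitosis promoters.

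Replication-dependent histone genes, whose mRNAs build up in S phase, had 39 of 48 members higher and none lower, with a median of 1.79. Hist1h2ad went from 2.41 to 29.3 FPKM and Hist1h2an from 0.916 to 16.6 FPKM. Hist1h2ah had 3 reads in the Brg1-deleted library, and its ratio of 23.2 has a counting interval of 7.61 to 115. The histone genes are near-identical copies without poly(A) tails, which the oligo(dT)-primed method catches poorly, so single members are uncertain. Regulators of entry into S phase were mixed. The G1/S list had 7 of 25 members higher, among them the repressors E2f7 (from 0.4396 to 1.41 FPKM) and E2f8 (from 0.507 to 2.15 FPKM), Mybl2 (from 1.19 to 4.12 FPKM), which acts with the CHR-binding complex, and the CDK inhibitors Cdkn2c (from 7.78 to 22.3 FPKM) and Cdkn2a (from 1.23 to 4.92 FPKM). Myc, the growth factor of transcription, was the member called lower, from 46.4 to 21.4 FPKM, and Cdk4 was level at from 90.4 to 90.3 FPKM. DNA repair genes had 8 of 46 higher, such as the recombination helper Rad51ap1 (from 2.82 to 7.87 FPKM), and 2 lower, Gadd45g (from 131 to 59.6 FPKM) and Sesn3 (from 4.65 to 1.68 FPKM), which are stress-induced.

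**Figure D3:**
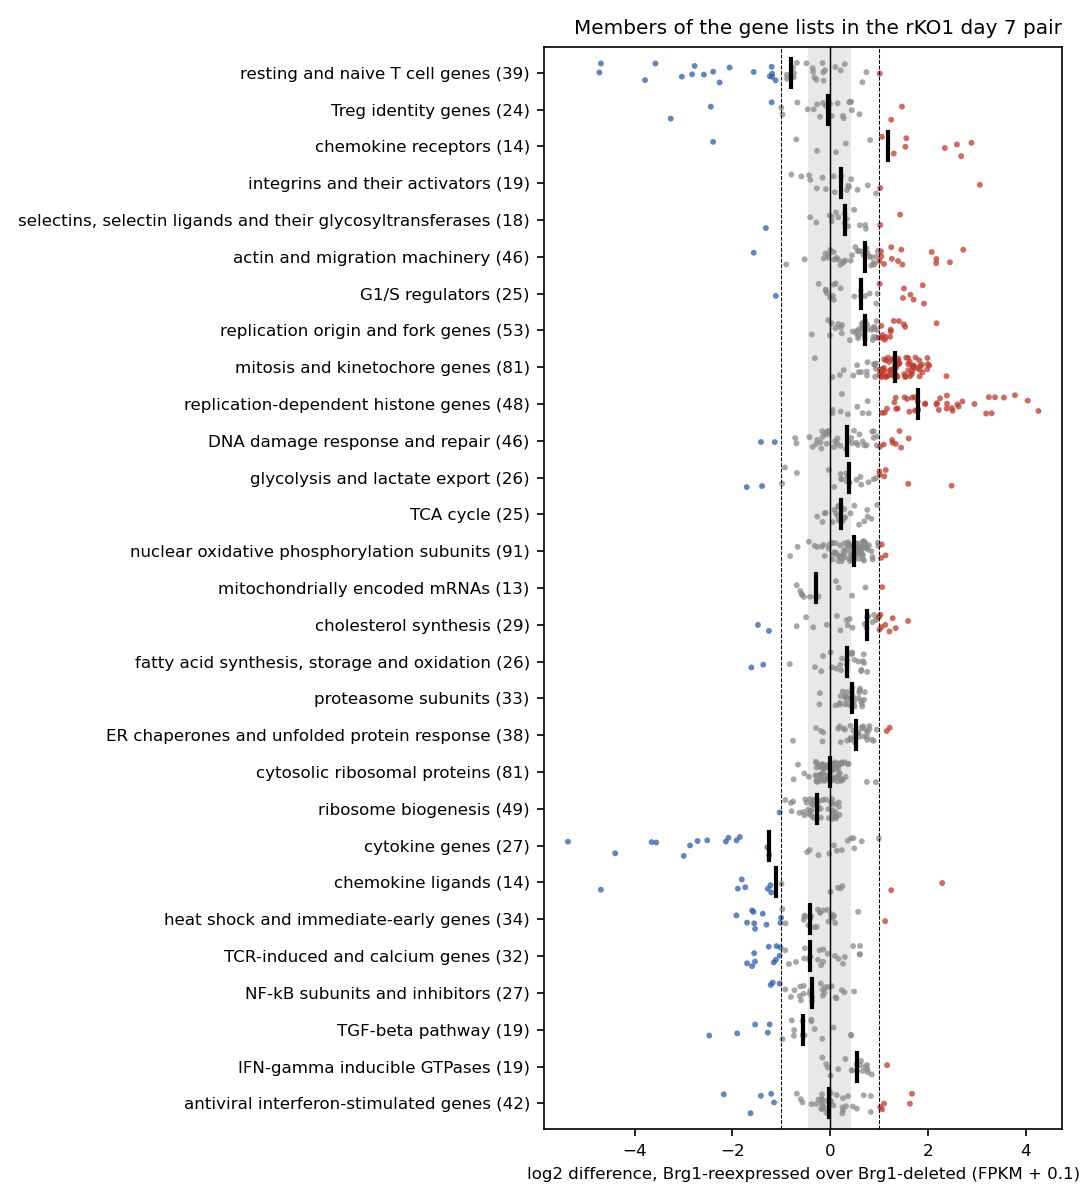
Each point is 1 member of a gene list, placed by its log2 difference (x axis), with the number of members after the list's name. Red points are at least 2-fold higher and blue points at least 2-fold lower, the black bar is the list's median, and the grey band runs from -0.43 to 0.40, the quartiles of all members. The bars of the mitosis and histone lists lie beyond 1 and that of the cytokine genes beyond -1.

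Cholesterol synthesis had 9 of 29 members higher, 2 lower and a median of 0.76. Along the pathway, mevalonate kinase Mvk went from 2.62 to 6.795 FPKM, the isomerase Idi1 from 2.53 to 6.29 FPKM, squalene synthase Fdft1 from 6.93 to 16.2 FPKM and squalene epoxidase Sqle from 1.98 to 4.44 FPKM. The counter-acting members were the ones called lower. Nr1h3, the sterol-sensing receptor LXRα, went from 3.32 to 1.33 FPKM and Mylip, a ligase that degrades the LDL receptor, from 5.14 to 1.78 FPKM. Under scaling by totals, 2 members would be called higher and 2 lower. In the mosaic pair the list's median was 0.05 and in the aTreg pair 0.15. Fatty acid genes had none higher and 2 of 26 lower, with a median of 0.34.

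Glycolysis genes had 6 of 26 members higher, 2 lower and a median of 0.37. Slc16a3, the lactate exporter MCT4, went from 0.587 to 3.74 FPKM, 6.37-fold (counting interval 4.74 to 8.72) higher. Among the later steps, triose phosphate isomerase Tpi1 (from 100.3 to 221 FPKM), phosphoglycerate kinase Pgk1 (from 58.1 to 118 FPKM), enolase Eno1 (from 147 to 296 FPKM) and pyruvate kinase Pkm (from 97.4 to 209 FPKM) were each just over 2-fold higher. Under scaling by totals 2 members were called higher and 4 lower. With the trend with level removed 2 were higher and 2 lower, while the list's median stood 0.38 above that of all members. The list had a median of 0.29 in the mosaic and -0.36 in the aTreg pair. The isoforms Ldhb (from 20.5 to 6.21 FPKM) and Eno2 (from 2.28 to 0.808 FPKM) were lower, while Ldha went from 514 to 982 FPKM. Egln3 (from 2.32 to 6.85 FPKM) and Ndrg1 (from 1.75 to 4.74 FPKM), targets of the hypoxia factor HIF, were higher among 3 of 17 called.

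Mitochondrial genes parted by where they are encoded. The nuclear oxidative phosphorylation list had a median of 0.49 with only 3 of 91 members 2-fold higher, for example Ndufa12 of complex I (from 55.9 to 115 FPKM), and 62 had their highest level in the Brg1-reexpressed library. The 13 mitochondrially encoded mRNAs had a median of -0.30, with mt-Nd1 from 2841 to 1896 FPKM and mt-Nd4 from 549.6 to 342 FPKM. mt-Co2 was the one called higher, from 33.2 to 69.5 FPKM. Short and highly expressed genes had higher differences in general, and these subunits are both. Relative to all members, the nuclear list stood at 0.37 after removal of the trend with exon length and 0.14 after removal of that with level. TCA cycle genes had no call among 25 members, and their median of 0.22 turns below 0 under scaling by totals.

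**Figure D4:**
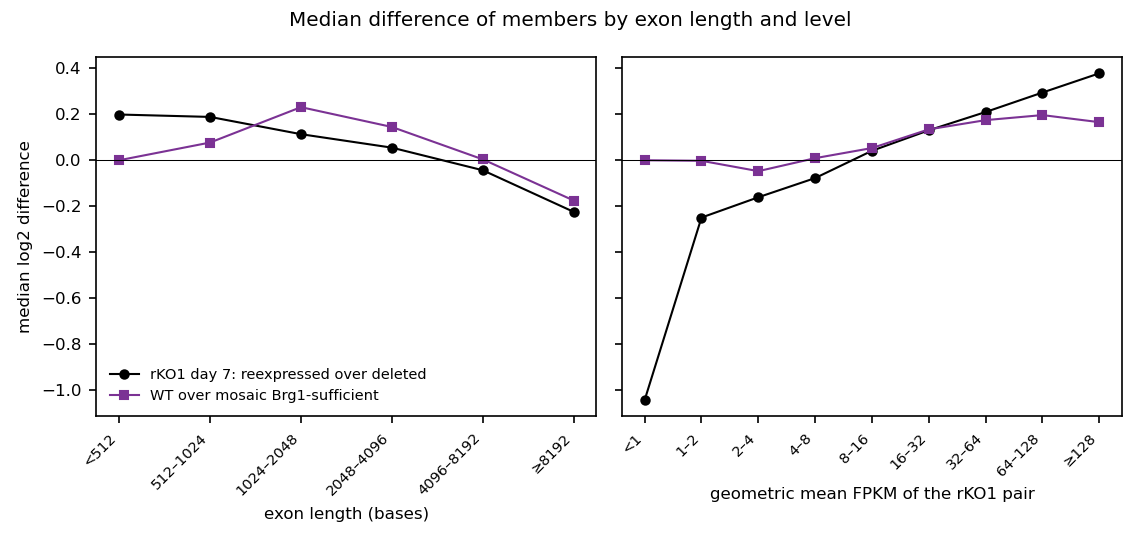
Median log2 difference of the members by exon length in bases (left) and by geometric mean FPKM of the rKO1 pair (right), for the Brg1-reexpressed over the Brg1-deleted library (black circles) and for WT over mosaic Brg1-sufficient cells (purple squares). In the rKO1 pair the medians run from 0.20 for the shortest to -0.22 for the longest genes and from -1.04 at the lowest to 0.38 at the highest levels.

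Protein quality genes shifted in small steps. None of 33 proteasome members was called, yet their median was 0.44, with Psmb2 going from 506 to 818 FPKM and Psma1 from 149 to 235 FPKM. ER chaperones had a median of 0.53 and 2 of 38 called higher, the disulfide isomerase Pdia6 (from 58.2 to 129.9 FPKM) and the signal peptidase subunit Sec11c (from 139 to 323 FPKM). The stress factors Atf4 (from 124 to 112 FPKM) and Ddit3 (from 39.6 to 32.4 FPKM) did not move with them. With the trend with level removed, the 2 lists stood at 0.11 and 0.35 relative to all members. Translation genes were flat. The 81 cytosolic ribosomal protein genes had a median of -0.01 and no call, and ribosome biogenesis genes a median of -0.27 with 1 of 49 lower.

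Cytokine genes were lower. Of 27 members, 14 were called lower and none higher, with a median of -1.25. Il5, the eosinophil growth factor, went from 5.700 to 0.0412 FPKM on 146 and 1 recovered reads, a ratio of 138 with a counting interval of 24.4 to 5501. Il4, another type 2 cytokine, measured 40.7 FPKM in the Brg1-deleted and 10.7 FPKM in the Brg1-reexpressed library, 10.1 FPKM in untreated rKO1, 0.377 and 2.43 FPKM in mosaic Brg1-deleted and Brg1-sufficient and 3.65 FPKM in WT cells. Csf2, which encodes GM-CSF, measured 14.03 FPKM in the Brg1-deleted and 2.38 FPKM in the Brg1-reexpressed library, 1.34 FPKM in untreated rKO1, 0.158 and 1.02 FPKM in mosaic Brg1-deleted and Brg1-sufficient and 0.329 FPKM in WT cells. Both were thus highest in the treated Brg1-deleted cells, and their Brg1-reexpressed level lay nearer to the untreated one. Il3, beside Csf2 on the chromosome, had 21 and 0 recovered reads, at least 6.63-fold lower. The T cell growth factor Il2 went from 4.67 to 0.498 FPKM on 89 and 9 recovered reads, and Il21 from 1.61 to 0.0361 FPKM on 141 and 3 recovered reads.

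The treated Brg1-deleted library was the highest of the 6 for 10 of the 27 cytokine members. With the untreated rKO1 library as the control in its place, the list's median relative to all members was -0.16, and Csf2 and Il4 differed by 0.78 and 0.09 on the log2 scale. Tnfsf8, the CD30 ligand, went from 30.3 to 4.08 FPKM, and lymphotoxin Lta from 148 to 33.8 FPKM, which was lower also than the 177 FPKM of untreated cells. Suppressive cytokines were not lower, and none was called. Il10 went from 40.1 to 56.5 FPKM, Ebi3, a chain of IL-35, from 31.03 to 61.98 FPKM and Areg, the repair factor amphiregulin, from 14.9 to 23.3 FPKM. Markers of other T cells moved with the list. The list of genes that mark conventional CD4 effector cells summed to 153 FPKM in the Brg1-deleted and 73.2 in the Brg1-reexpressed library, though it shares genes with the cytokine list, and the γδ T cell list to 46.9 and 7.73, with Tcrg-C1 going from 31.2 to 1.097 FPKM. The part of such cells in the cytokine values was not tested.

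Genes that follow recent antigen receptor signals were lower in part. The TCR-induced and calcium list had 10 of 32 members lower and none higher, with a median of -0.42. Nr4a1, which reports strong TCR signals, went from 69.5 to 21.4 FPKM, 3.26-fold (counting interval 3.05 to 3.48) lower, and its relative Nr4a3 from 6.47 to 2.14 FPKM. The feedback regulators Spry1 (from 5.06 to 1.68 FPKM), Dusp10 (from 17.05 to 7.08 FPKM) and Tagap (from 30.05 to 13.4 FPKM) were lower as well. Untreated rKO1 cells held 17.6 FPKM of Nr4a1 and 6.72 FPKM of Dusp10, so that neither was lower against that library. Other targets of the same signals were not. Tnfrsf9 (4-1BB) went from 139.8 to 213 FPKM, Tnfrsf4 (OX40) from 981 to 1488 FPKM and Irf4 from 6.14 to 7.58 FPKM. The TCR complex and its proximal kinases and adaptors had 1 call among 39 members, the adaptor Sla2 (from 31.3 to 65.8 FPKM).

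Immediate-early genes, which also respond to cell handling, had 10 of 34 members lower and 1 higher. In the yardstick pair of libraries with BRG1, 13 were higher and 1 lower, more calls than here. The AP-1 genes Fosb (from 2.58 to 0.609 FPKM), Jun (from 27.7 to 9.49 FPKM) and Fosl2 (from 1.71 to 0.5104 FPKM) were lower, while the chaperone Hspa8 was level at from 238 to 256 FPKM. Against the untreated rKO1 library the list stood at 0.15 relative to all members, so that its sign depended on the control. NF-kB feedback genes Nfkbiz (from 28.7 to 12.3 FPKM) and Tnfaip3 (from 37.8 to 16.7 FPKM) were called lower with Map3k14 (from 3.097 to 1.46 FPKM) among 27 members, and none was higher. Tnfaip3 stood at 6.99 FPKM in untreated cells, below both. In the TGF-β pathway 5 of 19 were lower and none higher, with a median of -0.56. They include the co-receptor Tgfbr3 (from 1.42 to 0.174 FPKM), the mediator Smad1 (from 2.65 to 0.637 FPKM) and the inhibitors Smad7 (from 7.04 to 2.93 FPKM), Skil (from 6.96 to 2.34 FPKM) and Smurf2 (from 7.09 to 2.87 FPKM), so that activating and inhibiting members moved alike.

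Interferon-related lists held few calls beyond the background. IFN-γ inducible GTPases, which attack vacuoles of intracellular microbes, had a median of 0.55 and 1 of 19 called, Iigp1 (from 20.1 to 45.2 FPKM, with 47.4 FPKM in untreated cells). With the untreated rKO1 library as control the list lay at -0.10 relative to all members and the antiviral list at -0.19, and in the yardstick pair the GTPase median was 0.51. Antiviral interferon-stimulated genes had 5 of 42 higher and 5 lower and a median of -0.03, which is 11.9% each way beside 8.5% and 9.34% of all members. Ifi27l2a went from 1829 to 5661 FPKM, 3.095-fold (counting interval 3.04 to 3.16) higher, and the nuclease Isg20 from 63.4 to 129 FPKM. Ifitm1 (from 25.7 to 5.62 FPKM), Ifitm2 (from 104 to 38.97 FPKM), which hinder viral entry, and Usp18 (from 20.8 to 6.67 FPKM), which removes ISG15, were lower. Ifitm1 stood at 2.74 FPKM in untreated rKO1 cells, below both treated libraries.

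The interferon-stimulated response element AAANNGAAA was in 65.6% of the 32 promoters of this list, on either strand, against 8.17% of all. Among members called higher it was in 8.97% and among those called lower in 10.7%. One promoter that holds the match is shown for each direction, as 150 bases of the RefSeq window (GRCm38.p6, strand of the gene). The match is in capitals. Both are examples that hold the letters, which were in genes that went opposite ways.
Phf11b, chr14:59341331-59341480 (- strand): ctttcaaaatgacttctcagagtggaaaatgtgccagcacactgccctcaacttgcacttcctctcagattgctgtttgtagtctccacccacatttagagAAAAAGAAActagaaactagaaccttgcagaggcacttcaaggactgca
Ifitm2, chr7:140955962-140956111 (- strand): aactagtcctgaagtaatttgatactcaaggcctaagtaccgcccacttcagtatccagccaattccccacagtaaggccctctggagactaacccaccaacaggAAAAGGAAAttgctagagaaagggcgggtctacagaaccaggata
Phf11b, an interferon-induced PHD finger gene, went from 149 to 311 FPKM and Ifitm2 from 104 to 38.97 FPKM.

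Within the Treg programme, Foxp3 and most lineage genes held their level while effector factors were rearranged. Treg identity genes had a median of -0.05, with 2 of 24 higher and 3 lower. Ctla4, the coinhibitory receptor that strips CD80 and CD86 from partner cells, went from 76.7 to 212 FPKM, 2.77-fold (counting interval 2.65 to 2.89) higher. Ikzf2 (Helios) went from 59.7 to 78.4 FPKM and Tnfrsf18 (GITR) from 603 to 799.9 FPKM. Gpr83, a receptor typical of Treg cells, went from 34.5 to 6.28 FPKM and Foxp1, a partner of FOXP3 that also keeps T cells quiescent, from 9.94 to 4.28 FPKM. Among effector factors, Prdm1, which encodes Blimp-1 and stands in the heat map, went from 3.65 to 12.3 FPKM. Outside the heat map, its neighbours in function Ikzf3 (Aiolos, from 8.43 to 21.8 FPKM), Zbtb32 (from 22.02 to 57.4 FPKM) and Maf (from 12.2 to 28.7 FPKM) were higher. Id3, an inhibitor of E proteins, went from 435 to 95.98 FPKM, 4.53-fold (counting interval 4.35 to 4.73) lower, and Bhlhe40 from 24.5 to 10.3 FPKM, with 6.11 FPKM in untreated cells.

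Surface genes of tissue and effector Treg cells had 11 of 36 members higher and 7 lower, with a median of 0.51. Without the genes of the heat map, 5 of 30 were higher and 7 lower. The TNF receptor Tnfrsf1b, a growth receptor of Treg cells, went from 32.6 to 68.8 FPKM. The activation marker Cd83 went from 47.04 to 17.1 FPKM and the tetraspanin Cd9 from 41.05 to 18.9 FPKM. The checkpoint gene Cd160, of the killer lectin-like list, went from 23.4 to 5.35 FPKM. Among cytokine receptors, 5 of 26 were lower and 1 higher. The higher one was the decoy receptor Il1r2, which catches IL-1, from 31.6 to 88.1 FPKM. The lower ones include the IL-6 signal chain Il6st (from 4.35 to 1.79 FPKM) and Ifngr2 (from 14.4 to 6.31 FPKM), beside Ifngr1 at from 77.6 to 125 FPKM. The IL-33 receptor Il1rl1, a mark of tissue Treg cells, went from 1.99 to 0.9004 FPKM.

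Granule genes were led by granzymes of the heat map, with Gzmb going from 265 to 1865 FPKM. Of the 17 other members, 3 were higher, including Stx11, a syntaxin of granule release (from 11.4 to 28.6 FPKM), and 2 lower. The lower ones were Ctsw, the lymphocyte cathepsin, with from 206 to 50.2 FPKM, 4.11-fold (counting interval 3.88 to 4.35) lower, and Fasl with from 10.01 to 4.15 FPKM. Killer lectin-like receptors had 4 of 12 lower and 2 higher. Among the lower ones, Klrb1b went from 1.99 FPKM to no read, at least 23.4-fold lower. The NK receptor Ncr1, of the CD8 T and NK list, went from 4.75 FPKM to no read, at least 38.5-fold lower. Untreated rKO1 cells held 0.257 FPKM of Ncr1 and WT cells 0.299 FPKM. Its fall thus rests on a high value in the treated Brg1-deleted library. In the mosaic pair Ncr1 stood at 0.0273 FPKM without and 3.24 FPKM with BRG1. Ncr1 is itself part of the sum of the CD8 T and NK markers, so they are not separate observations. Most of that sum came from Fcer1g and Tyrobp.

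Survival and death genes were mostly level. Bcl2, already named, was the one call among 18 BCL2 family members. Mcl1 went from 125 to 94.6 FPKM, Bcl2l1 from 10.2 to 13.9 FPKM and the BH3-only gene Bcl2l11 from 4.16 to 3.25 FPKM. In the caspase list 4 of 29 were higher. Among them were Birc5, also a mitosis gene (from 31.6 to 127 FPKM), the inflammasome adaptor Pycard (from 40.9 to 149 FPKM, 3.64-fold (counting interval 3.48 to 3.801) higher) and the necroptosis effector Mlkl (from 0.912 to 2.39 FPKM). The death receptor Fas went from 74.3 to 41.4 FPKM.

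Chromatin genes outside Smarca4 changed little. Besides Actb, the only BAF subunit called was Bicra (from 1.59 to 0.694 FPKM), and the 23 members had a median of -0.07. Arid1a, the defining subunit of canonical BAF, went from 14.7 to 8.24 FPKM, and Smarcb1 from 12.1 to 13.4 FPKM. Of Polycomb and DNA methylation genes, 3 of 21 were lower, namely Cbx7 (from 3.41 to 1.18 FPKM), the de novo methyltransferase Dnmt3b (from 1.39 to 0.447 FPKM) and the demethylase Kdm6b (from 7.18 to 2.997 FPKM). Uhrf1, which guides methylation after replication, went from 10.7 to 20.7 FPKM, just under 2-fold.

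The remaining lists are given by their counts, beside 17.8% of all members called. One-carbon and nucleotide synthesis had 4 higher and 0 lower of 30, all of the calls in nucleotide enzymes such as Rrm1 (from 4.61 to 9.83 FPKM). Genes of amino acid transport and the growth kinase mTORC1 had 1 higher and 2 lower of 28, with the translation inhibitor Eif4ebp1 higher, from 11.7 to 31.7 FPKM, and the nutrient-sensing GTPase Rragd lower, from 2.77 to 0.845 FPKM. Autophagy and lysosome genes had 2 higher and 1 lower of 35, and MHC class I genes had none of 22, with H2-D1 going from 2638 to 3785 FPKM. The JAK, STAT and SOCS list had 0 higher and 1 lower of 22. Notch, Wnt and PI3K genes had 1 higher and 3 lower of 30, the lower ones being Tcf7 itself, its relative Tcf7l2 (from 1.895 to 0.275 FPKM) and Notch2 (from 1.27 to 0.535 FPKM). Mitochondrial ribosomal proteins and aminoacyl-tRNA synthetases had no call among 77 and 20 members. Costimulatory and coinhibitory receptors had 7 higher and 3 lower of 33, and suppressive mediators 4 higher and 1 lower of 18, with the ectoenzymes Entpd1 (CD39) and Nt5e (CD73) at from 5.04 to 7.68 FPKM and from 8.04 to 5.82 FPKM.

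Called genes also lay side by side. A run of 6 neighbouring protein-coding members on chromosome 19, at 4148619 to 4201662 (mm10), was higher from Coro1b, an actin-binding coronin (from 7.21 to 19.01 FPKM), through Ptprcap, which binds CD45 (from 91.4 to 293 FPKM), Rps6kb2, Tbc1d10c and Ppp1ca (from 31.3 to 105 FPKM) to Rad9a. Some of these genes overlap, and reads of overlapping genes cannot be assigned with certainty. On chromosome 3, S100a3, S100a2, S100a4 and S100a6 formed a run of 4 at 90560578 to 90624181. Lower runs held Pdlim4, Csf2, Il3 and Fnip1 on chromosome 11 (54054928 to 54518235) and Il2, Il21, Cetn4, Bbs12 and Nudt6 on chromosome 3 (37120523 to 37420211). A further 4 runs were histone clusters on chromosome 13. Runs were found by scanning these calls, and how often neighbours would coincide was not tested.

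Outside protein-coding genes the calls were denser and less certain. Processed pseudogenes, copies of expressed mRNAs, had 232 of 1058 members higher and 88 lower, and share sequence with their parent genes. Antisense genes had 85 of 286 lower and 23 higher, and snoRNAs 48 of 107 lower and 16 higher. The counting is not stated to use strand, so antisense genes cannot be told from their partners. T cell receptor variable segments had 22 of 102 members higher and 4 lower, with a median of 0.47. Ighm, an immunoglobulin heavy chain gene, went from 150.1 to 697 FPKM and 7 of 9 immunoglobulin J segments were higher, while the plasma cell genes Jchain (from 10.6 to 4.93 FPKM) and Mzb1 (from 5.11 to 1.75 FPKM) were lower. In the mosaic pair Ighm stood at 53.5 FPKM without and 296 FPKM with BRG1. In the aTreg libraries titled Brg1-deleted and Brg1-reexpressed it stood at 537 and 520 FPKM.

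The other pairs of the study share no library with this one and give its members further readings. In mosaic females, whose Treg cells with and without BRG1 grow up in a healthy host, 771 of the members were 2-fold higher with BRG1 and 556 lower (6.12% and 4.42% of all members). The paper gives the mosaic cells with BRG1 as YFP- and those without it as YFP+, whereas both sides of the rKO1 pair were YFP+. The part of this gate in the mosaic differences was not tested. In the aTreg pair, with its direction taken from the titles, these were 877 and 510 (6.97% and 4.05%). Members called higher in the rKO1 pair had a positive difference in 71.03% in the mosaic and 69.3% in the aTreg pair, against 51.7% and 43.6% over all members. For members called lower these shares were 30.1% and 36.6%.

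Lists differed in how far they carried over. Mitosis genes had medians of 0.10 in the mosaic and 0.71 in the aTreg pair, beside 1.33 here. The yardstick pair of libraries with BRG1 had 0.71 for mitosis genes, as much as the aTreg pair, -0.30 for chemokine receptors and -0.08 for resting genes. Chemokine receptors had 2.54 and 0.57, beside 1.18. Resting genes had -0.23 and -0.52, beside -0.79. Among single genes, Igfbp4 differed by -1.69 and -0.51, Tcf7 by -0.16 and -0.69, Myo1f by 3.43 and 0.74 and Itga2 by 2.54 and 0.93. Tcf7 thus fell by 2.82 on the log2 scale in rKO1 total Treg cells and differed by under 1 in the other pairs. Differences between the pairs were not tested.

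**Figure D5:**
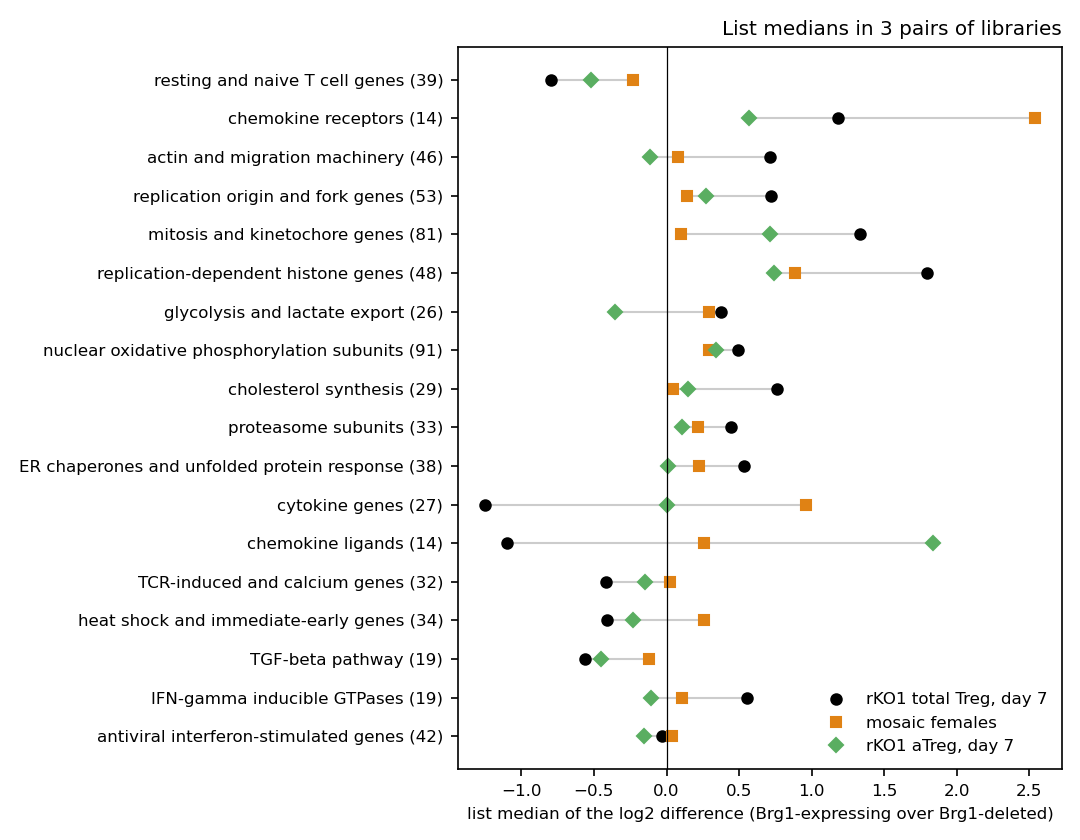
List medians of the log2 difference (x axis), Brg1-expressing over Brg1-deleted, in rKO1 total Treg cells on day 7 (black circles), mosaic females (orange squares) and rKO1 aTreg cells on day 7 (green diamonds), with the number of members after each list's name. Each pair is 1 library against 1 library, and the direction of the aTreg pair rests on the titles. The mitosis, histone and chemokine receptor medians are above 0 in all 3 pairs, and those of cytokine genes and chemokine ligands lie on different sides of 0.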

How the data were processed

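Sorted Treg cells were profiled by paired-end RNA sequencing after SMART-Seq v4 cDNA synthesis, with 1 library per condition. The authors deposited FPKM values per Ensembl gene, and the submitters' processing notes name HISAT2 2.0, StringTie 1.3.3b, featureCounts 1.5.0-p3 and mm10. The deposited FPKM values of the total Treg libraries carry a scale of their own beside the read totals, whose way of making is not given in the sources used here. Whole reads were recovered by multiplying each value by the GENCODE M21 exon length and the value of 1 read (whole within 0.02 reads for 90.9% of members in both libraries). The 8 libraries held between 16324008 and 24093551 recovered reads. A single read was worth 0.0602 CPM in the Brg1-deleted and 0.0516 CPM in the Brg1-reexpressed library. The floor was 3 reads, and it held 384 members on one side and 165 on both.

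Differences were log2((FPKM + 0.1)/(FPKM + 0.1)), and the code was tested on simulated data. Tables were handled with pandas 2.3.3 and NumPy 2.4.6, intervals came from SciPy 1.17.1 and figures from matplotlib 3.10.9, all under Python 3.11.15. The planned count test with a set dispersion was replaced by the 2-fold rule on FPKM, and no p-value is given, as no library has a replicate. The 62 gene lists (11 symbols unmatched) and the members were chosen with earlier results of these data known. Named genes were Smarca4 and the sort markers, the 15 largest rises and falls among protein-coding members with at least 10 FPKM outside the heat map and antigen receptor and histone genes, up to 6 each way per list, and members needed as contrast. S1pr1, Il7r, Cxcr6, Lta and the genes of the runs were among those named as contrast or after their values were seen. Some genes are not reported here. Promoters came from the RefSeq table (GRCm38.p6), which held 8141 members. The alternatives were other scalings, pseudocounts, filters, the untreated control and, chosen after seeing the data, removal of running medians over 501 members by exon length or level.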

Additional observations from a re-analysis of the deposited data

Results flagged for a closer look

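11 list medians stood at least 0.5 from the median of all members in opposite directions in the rKO1 pair and in another pair that shares no library with it. None of these differences between pairs was tested, as each pair is 1 library against 1 library. In the mosaic pair only the Brg1-deleted side was YFP+, whereas both sides of the rKO1 pair were, and the part of this gate was not tested. Cytokine genes had a median of -1.25 in the rKO1 pair and 0.96 in the mosaic pair, and chemokine ligands -1.10 in the rKO1 and 1.84 in the aTreg pair. Killer lectin-like receptors had -0.78 in the rKO1 pair, 1.21 in the mosaic and 1.27 in the aTreg pair. The genes of conventional CD4 effector cells had -1.91, 2.09 and 0.50 in the same order. Among lists that mark other cells, CD8 T and NK markers had -0.96, 0.62 and 0.83. Markers of γδ T cells had -2.72 in the rKO1 and 1.37 in the mosaic pair. Myeloid and dendritic markers had -1.12 in the rKO1 and 0.57 in the aTreg pair, and erythroid markers -0.98 and 3.93. The cytokine, CD4 effector and γδ T cell lists share genes. The CD8 T and NK list shares Fcer1g and Tyrobp with the myeloid list, and Klrd1 and Klrc1 with the killer lectin-like list. These lists are therefore not separate observations.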

How the results depend on the processing

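No paired analysis was possible because each group has 1 library, and none could be left out. The 1070 higher and 1176 lower members became 716 and 1861 under scaling by library totals, which moves the share of higher calls from 47.6% to 27.8%. They became 688 and 591 with a pseudocount of 1 FPKM, 549 and 316 with a minimum of 5 FPKM, 610 and 609 with a minimum of 5 CPM, 568 and 616 over protein-coding members alone, and 2256 and 3072 without a minimum. The filters differ from the reported count by the number of genes they hold. Counts stayed within 1.5 times under the trimmed mean of M-values, the median ratio, a pseudocount of 0.01 FPKM, a counting interval beyond 1, removal of the trend with exon length (992 and 1243), and the untreated rKO1 library as control (1526 and 1356). Under the setting with the untreated rKO1 Brg1-deleted library as control the sign turned for the median of IFN-gamma inducible GTPases relative to all members (-0.10), the median of conventional CD4 effector genes relative to all members (0.031), Bhlhe40 (0.74), Csf2 (0.78), Cysltr1 (0.37), Dusp10 (0.074), Ifitm1 (1.01), Iigp1 (-0.068), Il4 (0.090), Ltb4r1 (2.50), Nr4a1 (0.27), Tnfaip3 (1.25). List medians relative to all members cannot move under a change of scale alone. Of 61 list medians, 60 moved by under 0.25 when the trend with exon length was removed, 48 when that with level was, and 35 with the untreated control. With 1 library a side, neither mouse-to-mouse nor preparation spread is known, and genes near the floor carry counting intervals several fold wide.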
